A study of Sus scrofa with 6 samples.

Results

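CCNB1, CDC20 and NEK2 are genes of mitosis. They were taken by their symbols in the array's annotation, which paired 5 probe sets with these 3 genes, out of 6765 genes named on the array. CCNB1 (NCBI gene ID 397662) and CDC20 (397379) had 1 probe set each and NEK2 (397258) had 3. All 3 genes were among the 5601 genes that lay above a signal floor of 36.1 on at least 2 of the 6 arrays.

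Total RNA of pig (Sus scrofa) cartilage was measured on 6 expression arrays, with 1 array per condition and no replicates. Native growth plate cartilage, the layer that lengthens growing bones, and native articular cartilage, which covers the joint surface, were measured without culture. Chondrocytes released from each cartilage with collagenase were cultured in DMEM/Ham's F12 with FBS and antibiotics, at 37 °C with 5% oxygen and 5% carbon dioxide, and were taken at day 10 and at day 20 of what the labels call differentiation. The cultures received no other supplement. Breed, age and sex of the pigs, and whether the arrays of a tissue share animals or pools of animals, are not given in the sources used here.

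Cells enter mitosis when cyclin B, bound to the kinase CDK1, becomes active, and they leave it when the anaphase-promoting complex, a ubiquitin ligase, marks cyclin B and securin for destruction. The transcripts of most genes in this machinery are made late in the cell cycle, in G2 and M phase, and are scarce in resting cells. In the growth plate, chondrocytes divide in columns before they enlarge, whereas chondrocytes of mature articular cartilage seldom divide and can start dividing again when they are isolated and cultured.

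CCNB1 encodes cyclin B1, the regulatory partner of CDK1 at the entry into mitosis. Its signals were 3983 in native growth plate cartilage, 4175 in the growth plate culture at day 10 and 1659 at day 20. In articular samples they were 122 in native cartilage, 4877 at day 10 and 1596 at day 20. Native articular cartilage was therefore the lowest of the 6 samples by a wide margin, the 3 highest were the day 10 cultures and native growth plate, and the day 20 cultures lay between.

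CDC20 encodes an activator of the anaphase-promoting complex, held back by the spindle checkpoint until chromosomes are attached. Growth plate samples had signals of 1053 (native), 1371 (day 10) and 348 (day 20), and articular samples had 62.0, 1369 and 389. The order of the samples resembled that of CCNB1, with the day 10 cultures highest and nearly equal.

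NEK2 encodes a kinase that loosens the link between the centrosomes before the spindle forms. On the probe set with the highest mean, growth plate samples had 1170 (native), 476 (day 10) and 225 (day 20), and articular samples had 50.6, 607 and 222. For NEK2, unlike the other two, native growth plate cartilage was the highest sample, above both day 10 cultures. The other 2 probe sets of NEK2 were near or below the floor. One had 90.1 in native growth plate cartilage and 20.1 in native articular cartilage, with 36.5 or less in the 4 cultures, and the other passed the floor on 1 array, the growth plate culture at day 10, with 36.7. The high signal of the day 10 cultures thus rests on 1 of the 3 probe sets, while the native direction was seen on the 2 probe sets that passed the floor in native growth plate.

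**Figure D1:**
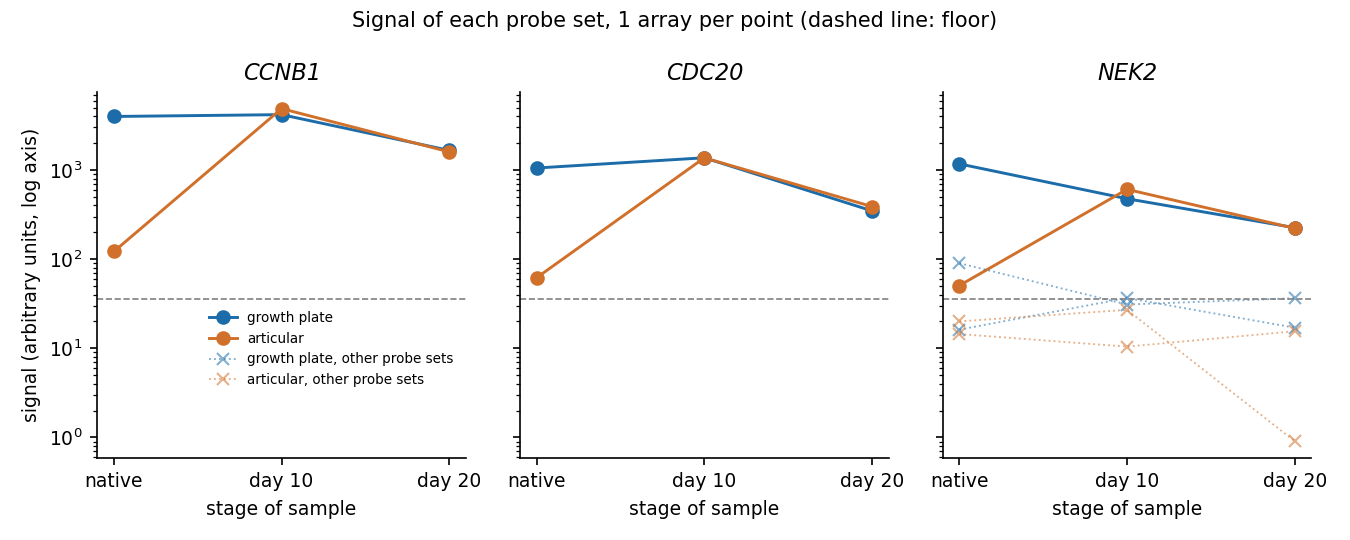
Signal of each probe set of CCNB1, CDC20 and NEK2 (vertical axis, arbitrary units on a log scale) in native, day 10 and day 20 samples of growth plate (blue) and articular (orange) cartilage; each point is 1 array, there are no error bars because no condition is replicated, crosses are the 2 further NEK2 probe sets, and the dashed line is the floor of 36.1. On the probe set used for each gene, native articular cartilage lies lowest (122, 62.0 and 50.6) and the growth plate and articular points nearly coincide in culture, which the 2 further NEK2 probe sets do not show.

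Before culture, all 3 genes were higher in growth plate than in articular cartilage. CCNB1 was 32.6-fold higher, NEK2 23.1-fold higher and CDC20 17.0-fold higher, which ranked them 9, 18 and 25 among the 5601 genes. At least 2-fold higher were 3 of the 3 genes, where 12.9% of all genes were, and at least 4-fold higher were again 3, where 3.45% of all genes were. The median log2 difference over all genes was -0.0049. Since the genes were chosen with these differences known, their place among all genes describes them and supports nothing further.

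These ratios compare single arrays. A limma fit of 3 groups, in which the 4 cultures supplied the spread and each native array was assumed to vary like them, gave log2 differences of 5.03 ± 0.93 (SE) for CCNB1, 4.09 ± 1.20 for CDC20 and 4.53 ± 0.87 for NEK2. The 4 cultures differ in tissue and day, so their spread holds the difference between day 10 and day 20 and is not that of replicates. None was called, with limma adjusted p of 0.173, 0.252 and 0.178, and a call required an adjusted p under 0.05 and a 2-fold difference. The same rule called 1 gene of 5601 (0.0179%), while an unadjusted p below 0.05 was found for 853. The native articular signals of CDC20 and NEK2 lay close to the floor and to the median signal of that array, 59.5, so these ratios depend on how low signals are treated: with a floor at the 60th percentile the log2 difference was 3.11 for NEK2 and 2.95 for CDC20. With the mean of its 3 probe sets NEK2 had a log2 difference of 1.95.

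The second comparison asked how articular chondrocytes in culture differed from native articular cartilage. All 3 genes were higher at both days. At day 10 CCNB1 was 39.96-fold, CDC20 22.1-fold and NEK2 12.0-fold above native articular cartilage, and at day 20 they were 13.1-fold, 6.28-fold and 4.38-fold above it. At least 2-fold higher at both days were 3 of 3 genes, against 9.80% of all genes. The NEK2 ratios come from 1 of its 3 probe sets, and the other 2 were below the floor on every articular array. With its 3 probe sets averaged, the 3-group limma fit put NEK2 in the 4 cultures 0.93 log2 units above native articular cartilage. In the 3-group limma fit the mean of the 4 cultures exceeded native articular cartilage by a log2 difference of 4.47 ± 0.74 for CCNB1, 3.52 ± 0.95 for CDC20 and 2.78 ± 0.69 for NEK2. CCNB1 was called higher, with a limma adjusted p of 0.0412, as were 2.39% of all genes, while CDC20 and NEK2 were not, at 0.107 and 0.0916. The CCNB1 call did not hold when any 1 of the 4 cultures was left out, with limma adjusted p between 0.0867 and 0.102 and log2 differences between 4.19 and 4.73. It was also lost with quantile normalization (0.0521), with no filter on low signals (0.0870) and with every probe set as a feature (0.0503).

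The third comparison asked how growth plate chondrocytes in culture differed from native growth plate cartilage, and here the 3 genes parted. At day 10 CCNB1 was 1.05-fold and CDC20 1.30-fold above native growth plate cartilage, while NEK2 was 2.46-fold below it, as 1 of the 3 genes at least 2-fold lower where 6.86% of all genes were. At day 20 all 3 were below native cartilage, CCNB1 by 2.40-fold, CDC20 by 3.02-fold and NEK2 by 5.19-fold. At least 2-fold lower at day 20 were 3 of 3 genes, where 5.71% of all genes were. With the 4 cultures as 1 group, NEK2 had a log2 difference from native growth plate of -1.75 ± 0.69, against -0.56 ± 0.74 for CCNB1 and -0.57 ± 0.95 for CDC20. None of the 3 was called by limma, with adjusted p of 0.719, 0.881 and 0.900, and of all genes 0 (0.00%) were called, with 385 at an unadjusted p under 0.05. Whether NEK2 differs from the other two in this respect was not tested.

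The growth plate and articular cultures were close to each other. At day 10 the growth plate to articular log2 difference was -0.22 for CCNB1, 0.0018 for CDC20 and -0.35 for NEK2, and at day 20 it was 0.056, -0.16 and 0.022. None of these 6 differences reached 2-fold. Of all genes, 3.43% passed 2-fold toward growth plate and 3.89% toward articular cultures at day 10, and 2.82% and 4.09% at day 20. In the limma fit to the 4 cultured arrays alone, the tissue difference was -0.084 ± 0.17 for CCNB1, -0.079 ± 0.23 for CDC20 and -0.16 ± 0.28 for NEK2, with adjusted p of 0.869, 0.917 and 0.840, where 1.21% of the 5473 genes of that fit were called higher and 1.55% lower. A difference that misses the threshold does not show that the cultures are alike. In the additive limma fit to all 6 arrays the tissue difference was 1.62 ± 1.02, 1.31 ± 0.85 and 1.401 ± 0.96, with 0 of the 3 called (adjusted p of 0.584, 0.591 and 0.607) against 0.0536% of all genes. Its positive sign rests on the native pair, since leaving out either native array turned it to the cultured-array values just given.

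Between day 10 and day 20 all 3 genes were lower at day 20 in both tissues. In growth plate cultures CCNB1 was 2.52-fold, CDC20 3.94-fold and NEK2 2.11-fold lower. In articular cultures they were 3.06-fold, 3.52-fold and 2.73-fold lower. At least 2-fold lower in both tissues were 3 of 3 genes, against 2.87% of all genes. In the limma fit to the 4 cultured arrays all 3 fell: CCNB1 by 1.47 ± 0.17 on the log2 scale (adjusted p of 0.000137), CDC20 by 1.90 ± 0.23 (0.000212) and NEK2 by 1.27 ± 0.28 (0.00768). That fit called 4.60% of its 5473 genes lower and 4.70% higher. Its spread rested on 1 degree of freedom among the arrays and 11.9 taken from the other genes. That 1 degree of freedom is how far the day change differed between the tissues, so the spread is not that of replicate cultures. Each day is 1 culture per tissue, and the p-values do not measure how far repeated cultures would vary. In the additive fit to all 6 arrays the same differences had standard errors of 1.25, 1.04 and 1.17 and limma adjusted p of 0.639, 0.455 and 0.673, and 0 genes (0.00%) were called, with 820 at an unadjusted p under 0.05. There the residual is the departure of each array from a sum of tissue and stage effects, which reached 1.70 log2 units for CCNB1 in the native pair. Other signals also differed between the days. The summed signal of 5 fibroblast and synovium markers went from 4677 at day 10 to 23885 at day 20 in growth plate cultures and from 10622 to 16140 in articular cultures. The ratio of the 3' to the 5' GAPDH control probe set, a sign of RNA integrity, went from 1.49 to 0.995 and from 1.44 to 1.15, and that of actin from 3.27 to 5.55 and from 4.58 to 8.75. Their part in the day difference was not tested.

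Averaged over both tissues and both days, culture minus native was 1.96 ± 1.08 for CCNB1, 1.48 ± 0.90 for CDC20 and 0.51 ± 1.02 for NEK2 in the additive fit. Of the 3, 0 were called by limma (adjusted p of 0.368, 0.406 and 0.804), as were 0 (0.00%) of all genes, with 1089 at an unadjusted p under 0.05. Without native articular cartilage the values were -0.60, -0.61 and -1.84, and without native growth plate cartilage 4.51, 3.56 and 2.86. The pooled value thus averages 2 values of opposite sign for each of the 3 genes. For NEK2 the tissues went opposite ways at both days, and for CCNB1 and CDC20 at day 20 only. Without native articular cartilage NEK2 was called lower, with a limma adjusted p of 0.00943. Without native growth plate cartilage all 3 were called higher. In each case native cartilage was then 1 array.

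Other genes of mitosis were read from 6 lists by role, which held 52 tested genes beside CCNB1, CDC20 and NEK2. Of the 52, 23 exceeded native articular cartilage by 2-fold or more in native growth plate cartilage and 3 were at least 2-fold below it, against 12.9% and 7.91% of all genes. Their median log2 difference was 0.61. None had a difference as large as those of CCNB1, CDC20 and NEK2.

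Among 13 tested genes of mitotic entry, 6 were at least 2-fold above articular cartilage in native growth plate and 3 at least 2-fold below. CCNB1 is among the 6, and of all genes 12.9% were higher and 7.91% lower by this rule. CCNB2, the other major B-type cyclin, had native signals of 992 in growth plate against 85.5 in articular cartilage. PLK1, a kinase that activates CDK1 and shapes the spindle, had 315 against 20.9, which is below the floor and makes the ratio at least 8.72-fold, and CDC25B, a phosphatase that activates CDK1, had 1250 against 277. The 3 lower genes belonged to the same list and are named after their values were seen: CKS2, a small CDK-binding protein, had 2467 against 5817; ENSA, an inhibitor of a mitotic phosphatase, had 53.2 against 107; and PKMYT1, an inhibitory kinase of CDK1, had 8.85, which is below the floor, against 87.2, a ratio of at least 2.41-fold.

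Of all genes, 12.9% passed 2-fold toward native growth plate and 7.91% toward articular cartilage. Of 12 genes of the anaphase-promoting complex and spindle checkpoint, 4 passed it toward growth plate and 0 toward articular cartilage. Beside CDC20 these were PTTG1, or securin, with signals of 3037 against 484; UBE2C, the complex's ubiquitin-conjugating enzyme, with 1760 against 446; and CDC23, a core subunit, with 418 against 166. On its other probe set UBE2C differed by 0.63 on the log2 scale. The other 8 genes of this list lay within 2-fold, such as ANAPC1, a scaffold subunit named after its values were seen, at 460 against 442.

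Of 7 centrosome genes, NEK2 and CEP55 were at least 2-fold higher and 0 were at least 2-fold lower, where 12.9% and 7.91% of all genes were. Beside NEK2, which was chosen beforehand, only CEP55 passed, which is near the share of all genes. CEP55, a scaffold of the final cut between daughter cells, had 572 against 150. The NEK2 relatives NEK6 and NEK9, kinases of the same family named after their values were seen, had 1594 against 1676 and 1950 against 2301, and neither reached 2-fold.

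Kinetochore genes and spindle genes had the largest medians. Of 7 kinetochore genes, 5 passed 2-fold toward growth plate and 0 toward articular cartilage, with a median log2 difference of 1.67. The shares of all genes were 12.9% and 7.91%, and in lists this short 0 lower genes is near the second share. CENPF, a kinetochore protein of late cell cycle, had 1483 against 144, NDC80, a microtubule-binding subunit, had 719 against 111, and its partner NUF2 had 416 against 130. SKA1, which also couples kinetochores to microtubules, had 325 against 99.0, and CENPI, named after its values were seen, had 476 against 201. Of 10 spindle and cytokinesis genes 7 were higher and 0 lower, with a median of 1.53. CDCA3 had 511 against 59.3 and DLGAP5, a spindle assembly factor, had 2162 against 317. HMMR and CIT had native articular signals of 18.1 and 35.6, below the floor, against 128.0 and 125 in growth plate, and the other probe sets of CIT did not differ by 2-fold.

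Of 6 genes of chromosome condensation, SMC4, a condensin subunit, had 1094 against 273, although its other probe set differed by 0.49 on the log2 scale, and TOP2A, the topoisomerase that untangles sister chromosomes, had 3221 against 1144. The other 4 lay within 2-fold. For this list and the next, the shares of all genes at least 2-fold higher and lower were 12.9% and 7.91%. Among 8 regulators of G2 and M phase transcription, FOXM1, an activator of these genes, had 118 against 53.0, and RBL2, a repressor of the retinoblastoma family, had 1102 against 476, and no gene was 2-fold lower.

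DNA replication genes were mixed in native cartilage. Of 14 tested, 0 passed 2-fold toward growth plate and 4 toward articular cartilage, where 12.9% and 7.91% of all genes did. The list's median log2 difference was -0.27. MCM2, MCM4 and MCM5, subunits of the replicative helicase, had 494 against 1891, 52.0 against 124 and 264 against 695, and LIG1, the ligase of lagging strands, had 91.4 against 266. When probe sets of a gene were averaged, 2 of the 14 were lower. Of 13 cell cycle inhibitors 2 were at least 2-fold higher and 2 lower, where 12.9% and 7.91% of all genes were. CDKN3, a phosphatase of CDKs, had 1583 against 493 and CCNG2, a cyclin linked to cell cycle arrest, had 1834 against 760, while BTG2 and GADD45G, which slow division, had 83.4 against 265 and 237 against 544.

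**Figure D2:**
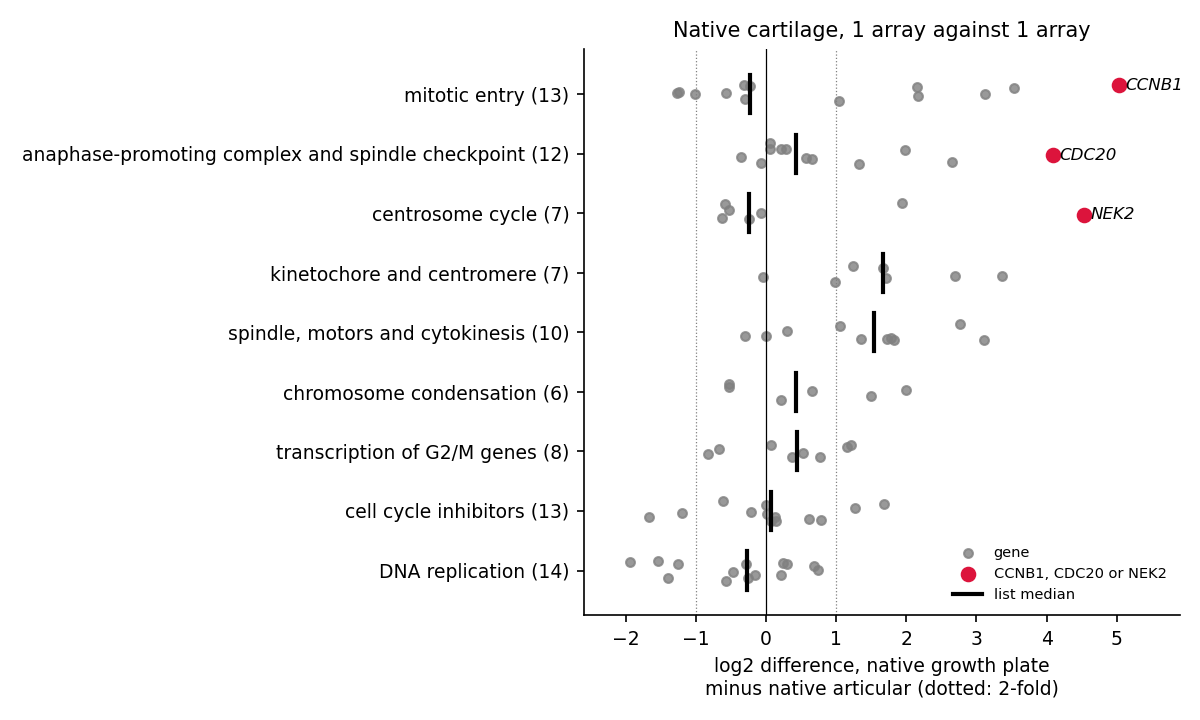
Log2 difference between native growth plate and native articular cartilage (horizontal axis) for the tested genes of 9 lists (rows, number of genes in brackets); each point is a gene measured on 1 array per tissue, black bars are list medians, and dotted lines mark 2-fold. CCNB1, CDC20 and NEK2 (red, 5.03, 4.09 and 4.53) lie to the right of every other gene of the lists, and the DNA replication list has a median of -0.27.

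In articular cultures at day 10, 30 of the 52 other mitotic genes were at least 2-fold above native articular cartilage and 0 below, against 16.1% and 9.59% of all genes, with a median log2 difference of 1.13. At day 20, 7 were at least 2-fold above and 5 below, against 14.9% and 8.86% of all genes, with a median of 0.13. At least 4-fold above native at day 20 were CCNB1, CDC20 and NEK2 but 0 of the other 52, while 4.37% of all genes were. CCNB2 came nearest among the 52, with 320 at day 20 against 85.5. These ratios are of floored signals, and the count of 0 depends on the floor. PLK1 had 105 at day 20 against 20.9 in native articular cartilage. KIF20A, of the spindle list, had 47.6 against 2.41. Both native signals are below the floor, which makes these 2 ratios lower bounds. KIF20A is named after its values were seen. In the 3-group limma fit 1 of the 55 genes of the 6 lists, CCNB1, was called higher in culture than in native articular cartilage, against 2.39% of all genes, and that call was lost without any 1 of the cultures.

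The lists also moved between the culture days, again judged on single cultures without replicates. Beside CCNB1, CDC20 and NEK2, 25 of the 52 mitotic genes fell from day 10 to day 20 and 0 rose, in the limma fit to the 4 cultured arrays, which called 4.60% of its 5473 genes lower and 4.70% higher. The additive fit to all 6 arrays called 0 genes of the mitotic, replication and inhibitor lists for the same difference, as it called 0 of all genes. TOP2A fell by 1.86 ± 0.19 on the log2 scale (limma adjusted p of 8.32e-05) and NDC80 by 2.25 ± 0.27 (0.000212). Of 14 DNA replication genes 11 fell and 0 rose in the fit to the 4 cultured arrays, against the same 4.60% and 4.70% of all its genes. RRM2, a subunit of ribonucleotide reductase, fell by 2.24 ± 0.20 on the log2 scale (limma adjusted p of 4.68e-05) and is named after its value was seen. Of 13 inhibitors 3 rose and 1 fell in that fit. CDKN1A, which encodes the CDK inhibitor p21, went from 3107 at day 10 to 5850 at day 20 in growth plate cultures and from 2618 to 6984 in articular cultures, and BTG2 and CCNG2 also rose. The 1 that fell, CDKN3, is itself most abundant in dividing cells. CDKN1A was named after its value was seen.

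**Figure D3:**
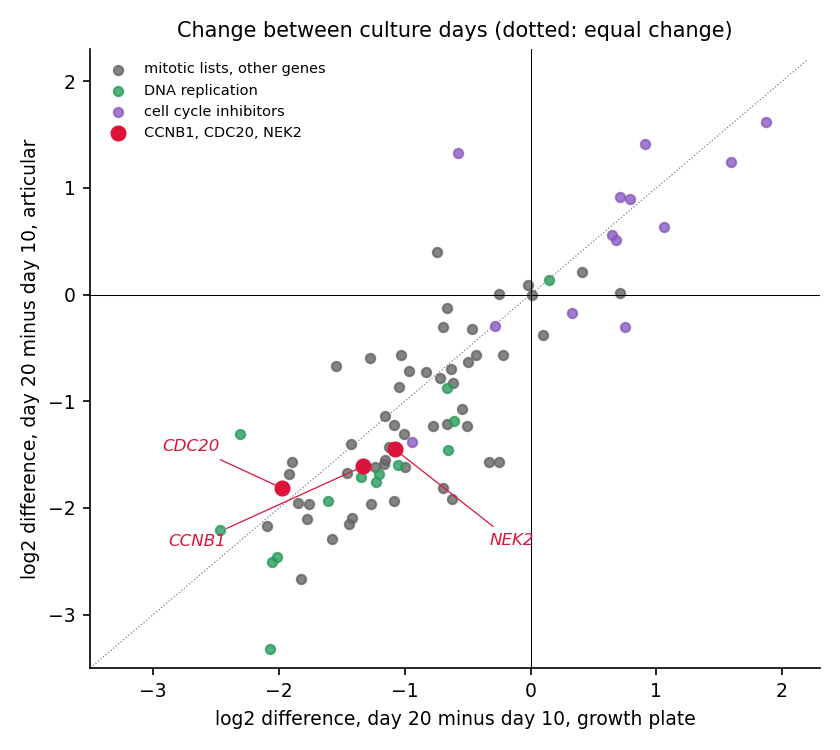
Log2 difference between day 20 and day 10 in growth plate cultures (horizontal axis) and articular cultures (vertical axis) for the tested genes of the mitotic lists (grey), the DNA replication list (green) and the inhibitor list (purple); each point is a gene, from 1 array per condition, and the dotted line marks equal change. CCNB1, CDC20 and NEK2 (red) lie in the lower left with most mitotic and replication genes, with growth plate values of -1.33, -1.98 and -1.08, and articular values of -1.61, -1.81 and -1.45.

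Across the 6 arrays, which share their 2 tissues and 3 stages, the log2 signals of the 3 genes followed each other. As a description, Pearson's r was 0.982 for CCNB1 and CDC20, 0.935 for CCNB1 and NEK2 and 0.937 for CDC20 and NEK2. The genes with the nearest profile to each were found by the root mean square difference of log2 signals centred on each gene's mean over the 6 arrays. ID1, an inhibitor of differentiation factors and target of BMP signalling, was nearest to all 3, at 0.46 from CCNB1, 0.39 from CDC20 and 0.33 from NEK2. ID1 had 2959 (native), 2106 (day 10) and 963 (day 20) in growth plate samples, against 131, 1882 and 878 in articular samples.

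The next nearest genes were mostly mitotic for CDC20 and NEK2 and less so for CCNB1. For CDC20 they were PLK1, CCNB2, PTTG1 and CDCA3, and for NEK2 they were CCNB2, PLK1, CDCA3 and DLGAP5, at distances from 0.37 to 0.56. For CCNB1 they were LOC100519098, CCNB2, C1QTNF6, a secreted protein, and ASF1A, a histone chaperone, at 0.60 to 0.78. No gene outside the 3 lay as near to CCNB1 as CDC20 did, at 0.40. A description set after the values were seen, of native articular cartilage at least 4-fold below native growth plate and both articular cultures with a 2-fold or larger decrease from day 10 to day 20 in both tissues, held for 4 of 5601 genes (0.0714%), which were these 3 and ID1. The count used floored signals, so PLK1, with 20.9 in native articular cartilage and 105 in the articular culture at day 20, did not meet it.

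**Figure D4:**
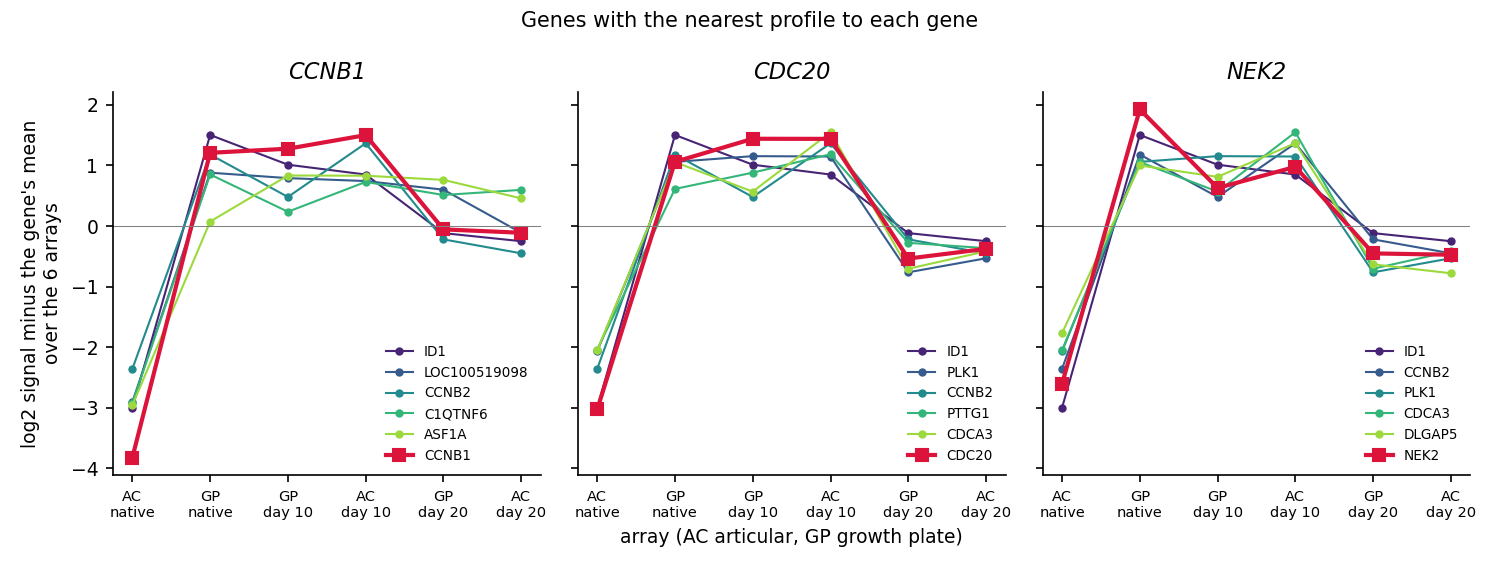
Log2 signal minus each gene's own mean over the 6 arrays (vertical axis) in articular (AC) and growth plate (GP) samples (horizontal axis, 1 array each) for CCNB1, CDC20 and NEK2 (red squares) and the 5 genes nearest to each (coloured points). Every profile is lowest in native articular cartilage, and the CCNB1 profile departs further there than those of its 5 nearest genes.

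The native articular array, on which most of these differences rest, stood apart in other ways. Its mean correlation across genes with the other arrays was 0.889, where the other 5 had 0.930 to 0.939, and 27.6% of all genes had their lowest signal on it. The ratio of the 3' to the 5' control probe set was 4.28 for actin on that array, within the 3.27 to 8.75 of the others. For GAPDH it was 1.52 on one pair of control probe sets, where the others had 0.995 to 1.49, and 9.88 on another pair, below the 12.5 of the articular culture at day 10 and above the other 4 arrays. The 6 measured chondrocyte markers were above the floor on all arrays, and their summed signal was 39900 on the native articular array and 29764 to 37662 on the others. Single markers differed more on that array. SOX9 had 982 against 76.8 to 175 on the others, and COL2A1 had 2929 against 1164 to 1689. COL11A1 and COMP were lowest there, at 378 against 431 to 1089 and 3390 against 5098 to 8205. The 5 measured fibroblast and synovium markers summed to 3276 there and to 4677 to 23885 elsewhere, with LUM at 15.5, below the floor, and the 6 endothelial markers summed to 479 against 148 to 272, with PECAM1 and ENG the ones above the floor. Of the 6 blood cell markers HBB alone was above the floor there, and PTPRC, the marker of white blood cells, was below it on every array. The muscle list summed to 48.8 there against 67.6 to 376, the osteoblast list to 124 against 56.7 to 123, and the adipocyte list to 482 against 450 to 1391. The part of RNA quality or of other cell types in the differences was not tested. In tissue and culture RNA, fewer dividing cells and less transcript per dividing cell cannot be told apart.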

How the data were processed

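The authors deposited 1 linear signal intensity for every probe set and array, and the submitters' processing notes name GCOS 1.4. The trimmed mean, with 2% left out at each end, lay between 400.09 and 400.11 on every array, so the values were used without further scaling. Of 24123 probe sets 124 controls were left out, and the 40th percentile of the rest was the floor, to which lower signals were raised before log2. The array annotation gave 10069 probe sets 1 symbol, 198 several and 13732 none. Of those with 1 symbol, 9961 had a current RefSeq gene ID, used for names. For a gene with several probe sets, the one of highest mean log2 signal was used. Models of all 6 arrays were fitted on 5601 genes with limma 3.58.1 in R 4.3.3 (the data.table package was version 1.17.8), with an intensity trend and Benjamini-Hochberg adjustment: an additive fit of tissue and stage on 2 residual degrees of freedom, and a 3-group fit on 3. The additive model was also fitted to the 4 cultured arrays alone, where 5473 genes passed the filter, on 1 residual degree of freedom. The scripts were tested on simulated data. Named genes were, by rule, the 3 genes with all probe sets, the 5 nearest profiles of each, and up to 4 genes of each list with the largest native difference. The genes, lists and tests were chosen with earlier results of these data known. P-values rest on how far these arrays depart from each model and on spread taken from the other genes, not on replicates. The number of arrays limits the precision. Alternatives covered normalization, floor, pseudocount, filter, probe sets, trend and left-out arrays. No sequences are shown, since none were used here.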

Additional observations from a re-analysis of the deposited data

Results flagged for a closer look

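For 13 of the 40 genes named by rule, both culture days lay on one side of native cartilage in growth plate and on the other side in articular samples. The same held for 16.9% of the 5601 genes tested, but most of the 40 were chosen for large native differences or for profiles near those of CCNB1, CDC20 and NEK2, which favours this pattern, so the shares are not comparable. The difference between the tissues was not tested, because each condition is 1 array. NEK2 had a mean log2 change of -1.84 in growth plate and 2.86 in articular samples, a difference of -4.69. For ID1 the difference was -4.35, for C1QTNF6 -4.07, for CCNB2 -3.86, for CDCA3 -3.74 and for LOC100519098 -3.40. For DLGAP5 it was -2.97, for CENPF -2.79, for CIT -2.33, for SMC4 -2.27 and for CEP55 -2.23. RBL2 had -1.39. LIN52 went the opposite way, with 0.557. CCNB1 and CDC20 were not among them, since their growth plate signals at day 10 were slightly above native cartilage. Their mean log2 changes were -0.60 in growth plate and 4.51 in articular samples for CCNB1, and -0.61 and 3.56 for CDC20. The rule reads only the side of native cartilage at each day, so it does not show that their tissues differed less.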

How the results depend on the processing

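No paired analysis was possible because each condition had 1 array and so no replicate number to pair by; the fit to the 4 cultured arrays compares the days within tissue. The 18 log2 differences of CCNB1, CDC20 and NEK2 were recomputed under each alternative. Of these values 246 kept their direction and side of the threshold, 17 reversed sign, 12 newly passed the threshold in the same direction and 7 lost it. Of the reversed values, NEK2 in culture minus native without native articular cartilage also passed it. Where a native array was left out, the reversals come from the averaging over tissues or stages described above. The cause of the other changes was not tested. The 3 native differences kept their direction and stayed uncalled in all 14 alternatives each, with log2 values of 4.77 to 5.03 for CCNB1, 2.95 to 4.09 for CDC20 and 1.95 to 4.53 for NEK2.

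CCNB1 in the cultures minus native articular cartilage was no longer called with quantile normalization (4.25), no filter (4.47), every probe set as a feature (4.47) or any culture left out (4.19 to 4.73). With the 4 cultured arrays alone the day difference was called for CCNB1 (-1.47), CDC20 (-1.90) and NEK2 (-1.27), and the tissue difference turned to -0.084, -0.079 and -0.16. NEK2 in culture minus native turned to -0.20 with a floor at the 60th percentile and to -0.047 with the mean of its probe sets. With that mean, NEK2 in the cultures minus native articular cartilage was 0.93. Leaving out 1 array gave culture minus native of -0.60 to 4.51 for CCNB1, -0.61 to 3.56 for CDC20 and -1.84 to 2.86 for NEK2. It gave day differences of -2.85 to -0.088, -2.998 to -0.79 and -2.58 to 0.048, and tissue differences of -0.084 to 2.54, -0.079 to 2.04 and -0.16 to 2.28, in the same order of genes.

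At 4-fold, 13 of the 55 mitotic genes were higher in native growth plate and 0 lower, where 3.45% and 1.21% of all genes were. The 55 include CCNB1, CDC20 and NEK2, without which 10 of 52 were higher. Of the 55, 1 was at least 4-fold lower at day 20 than at day 10 in growth plate and 6 in articular cultures, where 0.839% and 0.607% of all genes were. For DNA replication genes these counts of lower genes were 0 in native growth plate, 5 and 4. With the mean of probe sets, 2 replication genes were lower in native growth plate and 6 at day 20 in growth plate cultures. Median centring, chosen for the gene lists after seeing the data, moved the median native difference of all genes from -0.0049 to -0.26. The number of the 55 mitotic genes that passed 2-fold toward native growth plate then fell from 26 to 23, as with quantile normalization. Signals near the floor, such as native articular NEK2, limit the ratios.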
